A study of Mus musculus with 7 samples.

Results

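Genes of iron handling were followed in the optic nerve of mice that lack fatty acid synthase (Fasn) in the oligodendrocyte (OL) lineage. The 10 genes were the rows of the deposited expression matrix, of 22880 in all, whose symbol was Trf, Tfrc, Fth1, Ftl1, Slc40a1, Slc11a2, Heph, Cp, Ireb2 or Aco1. RNA was sequenced at P14 from 4 control mice (CT), which were Cre- Fasn lox/lox, and 3 mutant mice (cMU), which carried Olig2Cre and Fasn lox/lox, and both optic nerves of a mouse made a single sample. Both groups were homozygous for the floxed allele. The labels give a C57Bl/6 background for both, reached by backcrossing of the floxed line, which came from a mixed 129X1/SvJ, C57BL/6 and DBA origin. Cre was expressed under the control of the Olig2 promoter, so recombination followed that promoter and not a mature OL marker. Levels were FPKM, fragments scaled for library size and for the length of the gene model, so comparisons between genes depend on the lengths used. Each value is a mean over all cells of the nerve and its sheath, and fewer cells of a type cannot be told apart from less RNA per cell in such bulk samples.

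Cells take up iron mostly as transferrin-bound ferric iron through the transferrin receptor, release it from endosomes through a divalent metal transporter, keep the surplus in ferritin, and export it through ferroportin with the help of a copper-containing ferroxidase. OLs are the most iron-rich cells of the brain, make transferrin themselves, and need iron for the enzymes of lipid and myelin synthesis. The supply is adjusted after transcription: when iron is scarce, iron regulatory proteins bind a hairpin called the iron responsive element (IRE), which blocks translation from a 5′ UTR and protects the mRNA from decay in a 3′ UTR.

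The hairpins of the genes themselves are shown first, because their place separates mRNAs with a match in the 5′ UTR from mRNAs with a match in the 3′ UTR. Mature transcripts of GENCODE vM21 on GRCm38 were searched on the sense strand for the canonical form, a bulged C, 5 paired bases, the loop CAGTGN with N any base, and 5 bases that pair with the first 5, G-T pairs allowed. A stem without a mismatch lay in the 5′ UTR of 3 of the 10 genes, against 0.148% of 20900 genes with a 5′ UTR, and in the 3′ UTR of 1 of the 10, against 0.595% of 21681 genes with a 3′ UTR. The windows of 29 bases below run 5′ to 3′ on the transcript, with the loop in capitals. The 5′ UTR hairpins belong to the ferritin subunits and to ferroportin, at chr19:9982732-9982760 on the plus strand for Fth1, chr7:45459779-45459807 on the minus strand for Ftl1, and chr1:45925465-45925493 on the minus strand for Slc40a1.
Fth1: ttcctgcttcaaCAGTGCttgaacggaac
Ftl1: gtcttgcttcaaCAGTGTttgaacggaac
Slc40a1: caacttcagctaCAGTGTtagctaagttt

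The 3′ UTR of Tfrc held 4 such hairpins on the plus strand, at chr16:32631219-32631247, chr16:32631598-32631626, chr16:32631663-32631691 and chr16:32631710-32631738.
Tfrc hairpin 1: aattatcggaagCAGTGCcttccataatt
Tfrc hairpin 2: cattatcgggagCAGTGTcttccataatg
Tfrc hairpin 3: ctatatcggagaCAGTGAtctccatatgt
Tfrc hairpin 4: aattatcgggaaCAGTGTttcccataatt

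A further hairpin with 1 unpaired position in its stem lay in the 3′ UTR of Slc11a2, at chr15:100395153-100395181 on the minus strand, where 4.02% of genes had a match under the same allowance.
Slc11a2: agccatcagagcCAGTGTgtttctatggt

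Of the protein-coding transcripts of Slc11a2 searched, 1 carried it, and the deposited level is given per gene, so the forms with and without the hairpin were not separated. A match under the same allowance lay in the coding sequence of Heph, where 6.35% of genes had 1, and none was found in Trf, Cp, Ireb2 or Aco1. A match is a description of the sequence and not of a bound protein.

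The libraries held between 27457711 and 43460874 reads, as recovered from the deposited values. Fasn, which checks the labels, was 205 ± 25.1 FPKM (SD, n = 4) in CT and 56.3 ± 11.3 FPKM (SD, n = 3) in cMU, and the highest cMU sample (69.3 FPKM) lay far below the lowest CT sample (169 FPKM). All mature OL (12), OPC (7), astrocyte (8) and microglia (9) markers looked up were expressed in the nerve, whereas the pigment epithelium gene Rpe65 stayed at or under 0.0337 FPKM. A pair of libraries stood apart. The summed erythroid markers of CT sample 2 were 12650 FPKM, against 2834 to 5565 FPKM in the other 6 samples, and the summed meningeal fibroblast markers of cMU sample 1 were 2153 FPKM, against 694 to 1274 FPKM in the others.

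Between the genotypes, Slc11a2 was the only iron gene of the 10 past the threshold in the limma fit with genotype alone, and it was lower in cMU. The exporter Slc40a1 and the ferroxidases Heph and Cp were higher in every cMU sample than in every CT sample, and Tfrc was lower in every cMU sample, but the adjusted p of these 4 genes stayed above 0.05 in that fit. With the replicate number added as a block, the call of Slc11a2 was lost (limma adjusted p = 0.0614), while Heph (0.0309) and Cp (0.0251) passed, 2 of the 10 genes against 8.36% of all genes tested. The labels do not say what the number stands for, and its use as a block was settled from the same values. DESeq2 on reads called Slc11a2, Heph and Cp, 3 of the 10 genes against 12.1% of all. Fth1, Trf, Ftl1, Ireb2 and Aco1 overlapped between the genotypes. Values on the scale of log2(FPKM + 0.5) were compared with limma-trend and Benjamini-Hochberg adjustment over 13866 genes, of which 2.62% passed at an adjusted p under 0.05, in either direction (fit with genotype alone, 175 higher and 188 lower, or 103 higher and 267 lower on the deposited normalized counts). At an unadjusted p under 0.05 stood 5 of the 10 iron genes, against 24.4% of all genes tested. All cMU samples lay above all CT samples for 3 of the 10 genes, against 12.9% of all genes, and below them for 2 of the 10, against 8.26%. The median log2 fold change was 0.01 over the 10 genes and 0.05 over all genes tested, and 5 of the 10 were positive. With 4 samples against 3, the smallest two-sided p that exact permutation of the genotypes can give is 0.0571, so single genes were judged in the fit across all genes.

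**Figure D1:**
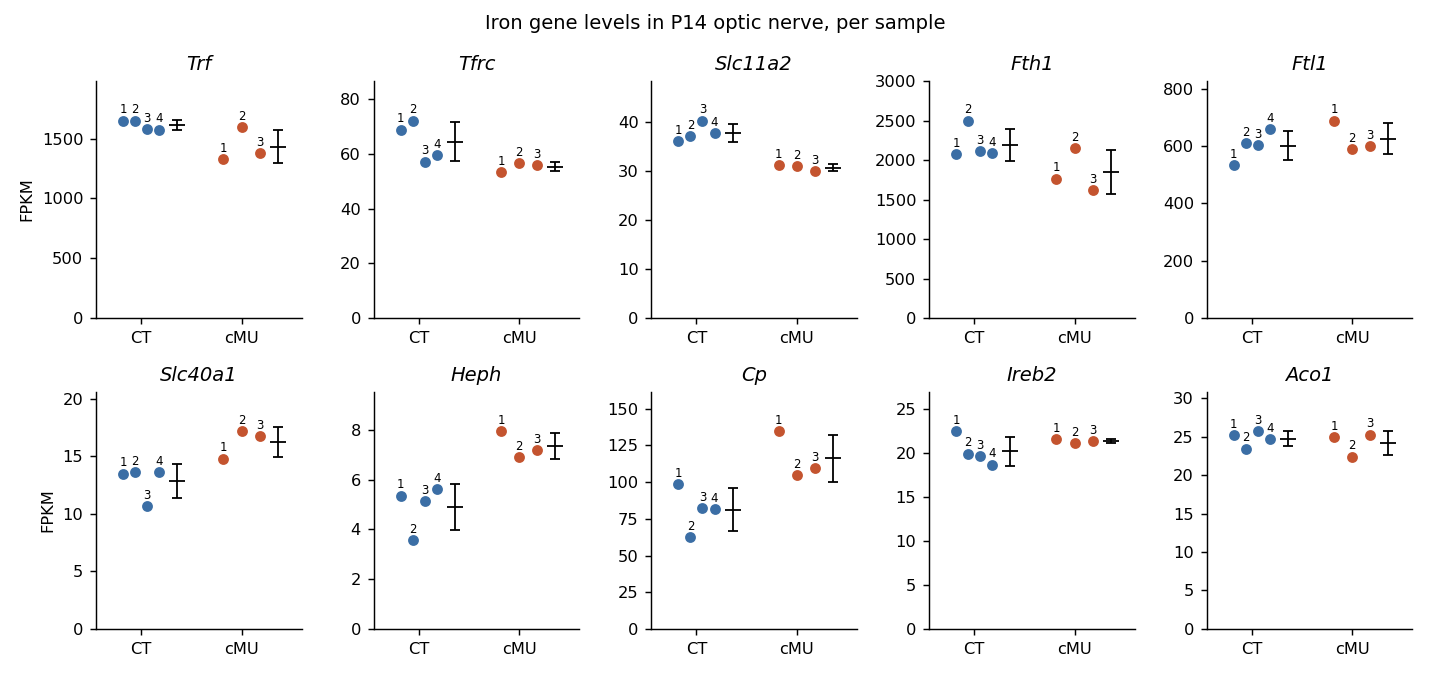
Level of each iron gene in FPKM on a linear axis from 0, with blue points for the 4 CT samples, orange points for the 3 cMU samples, sample numbers above the points, and black marks for the mean ± SD. The cMU points lie clear of the CT points in Slc11a2, Slc40a1, Heph, Cp and, by a small margin, Tfrc.

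The genes spanned a wide range of levels in the nerve. By mean FPKM in CT, Fth1 (2198) came first, followed by Trf (1614) and Ftl1 (602). Cp (81.3), Tfrc (64.4), Slc11a2 (37.8), Aco1 (24.7) and Ireb2 (20.1) lay in the middle, and Slc40a1 (12.9) and Heph (4.92) were lowest. The ferritin heavy chain thus stood 1.36-fold above transferrin, and ferroportin 2.61-fold above hephaestin. These ratios depend on the lengths used for FPKM, which were 1886 bases for Slc40a1 and 3700 for Heph. Their transcripts with a hairpin match had 3370 and 4743 bases, and other lengths were not tested. Neighbours in this order had separate ranges over the CT samples except Cp and Tfrc, whose CT ranges overlapped, and the order of the means in cMU was the same. The depth behind these levels was high, with at least 517 reads in every library for Heph, the lowest of the 10, and at least 38636 for Fth1.

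Iron uptake is represented by the carrier Trf, its receptor Tfrc and the transporter Slc11a2. Trf (ENSMUSG00000032554, GRCm38 chr9:103204001-103230444, minus strand) encodes transferrin, the carrier that binds ferric iron outside cells. In CT samples 1 to 4 its level was 1650, 1651, 1581 and 1575 FPKM, and in cMU samples 1 to 3 it was 1329, 1595 and 1379 FPKM. The CT samples lay within a narrow band, cMU samples 1 and 3 lay below it, and cMU sample 2 lay inside it. The log2 fold change was -0.17 with a 95% confidence interval of -0.38 to 0.03 (limma, adjusted p = 0.261). The summed mature OL markers ran from 60695 to 68462 FPKM in CT and from 44482 to 57437 FPKM in cMU, where sample 2 again had the highest sum, and 11 of the 12 markers were negative with a median log2 fold change of -0.22, 2 of them past the threshold. Whether Trf moved apart from the OL share of the RNA was not tested.

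Tfrc (ENSMUSG00000022797, chr16:32608920-32632794, plus strand) encodes the transferrin receptor that carries loaded transferrin into endosomes. Its level was 68.9, 72.1, 57.1 and 59.6 FPKM in CT samples 1 to 4 and 53.4, 56.6 and 55.9 FPKM in cMU samples 1 to 3. All cMU samples lay below the CT samples, but the highest cMU sample and the lowest CT sample, at 56.61 and 57.14 FPKM, lay close together. CT samples 1 and 2 lay well above CT samples 3 and 4. The means were 64.4 ± 7.21 FPKM (SD, n = 4) and 55.3 ± 1.71 FPKM (SD, n = 3), and the log2 fold change was -0.21 (95% confidence interval -0.41 to -0.01, limma adjusted p = 0.179). Tfrc is highly expressed by erythroid precursors and by brain endothelium. The erythroid sum was highest in CT sample 2, where Tfrc was highest too, and without that sample the log2 fold change of Tfrc was -0.16 (limma adjusted p = 0.343). The summed endothelial markers ran from 159 to 187 FPKM in CT and from 194 to 219 FPKM in cMU, with 8 of 8 positive and none past the threshold in limma (5 at an unadjusted p under 0.05), the opposite direction to Tfrc. The part of these cells in the level of Tfrc was not tested.

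Slc11a2 (ENSMUSG00000023030, chr15:100387898-100425072, minus strand) encodes the divalent metal transporter DMT1, which moves ferrous iron out of endosomes into the cytosol. Its level was 36.1, 37.1, 40.3 and 37.6 FPKM in CT samples 1 to 4 and 31.1, 31.0 and 29.9 FPKM in cMU samples 1 to 3. The groups were well separated, and the cMU samples lay closer to each other than the CT samples did. The mean was 37.8 ± 1.78 FPKM (SD, n = 4) in CT and 30.7 ± 0.667 FPKM (SD, n = 3) in cMU, which is 81.2% of CT, and Slc11a2 fell by 0.29 on the log2 scale (SE 0.06, limma adjusted p = 0.0437). The adjusted p was 0.0409 with the quasi-likelihood test of edgeR and 0.000964 with DESeq2 on the recovered reads. The call lay close to the threshold: besides the block, a fit in which CT sample 4 has no partner and carries no weight (0.0614), it was lost without a filter on low values (0.0589) and with TPM scaling (0.0542), and without single samples the adjusted p ran from 0.0474 to 0.139, past the threshold only without cMU sample 2, while the log2 fold change kept between -0.32 and -0.26. The summed OPC markers ran from 372 to 428 FPKM in CT and from 274 to 320 FPKM in cMU. Of these, 7 of 7 were negative, with a median log2 fold change of -0.33. The largest part of this sum was Gpr17 (mean 241 FPKM in CT, 164 FPKM in cMU), which the authors list among transcripts enriched in myelin-forming OLs. Gpr17 and Cspg4 were the 2 past the threshold, and C1ql1 and Matn4 were also lower in every cMU sample. Pdgfra (38.11 to 58.12 FPKM in CT, 39.28 to 47.35 FPKM in cMU, limma adjusted p = 0.537), Lhfpl3 and Cacng4 overlapped between the genotypes. The mature OL markers given for Trf lay lower in cMU too. The part of both marker sets in the level of Slc11a2 was not tested. Of 9451 genes with a mean of at least 5 FPKM, those whose log2 level followed that of Slc11a2 most closely were Slc27a4, a fatty acid transport protein (Pearson r = 0.990), and Lmf1, a factor for the maturation of lipases (r = 0.983), over the 7 samples, which share their libraries and differences in composition.

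Storage rests on ferritin, a shell of heavy and light chains. Fth1 (ENSMUSG00000024661, chr19:9982703-9985092, plus strand) encodes the heavy chain, which oxidises ferrous iron on entry. Its level was 2080, 2502, 2116 and 2093 FPKM in CT samples 1 to 4 and 1766, 2155 and 1625 FPKM in cMU samples 1 to 3. CT sample 2 lay far above the other CT samples, and cMU sample 2 lay inside the CT range while cMU samples 1 and 3 lay below it. The log2 fold change was -0.26 (95% confidence interval -0.53 to 0.02, limma adjusted p = 0.234), and when single samples were left out it ran from -0.37 without cMU sample 2 to -0.17 without cMU sample 3, with adjusted p values of 0.0738 and 0.520. Without CT sample 2 it was -0.19 (limma adjusted p = 0.418).

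Ftl1 (ENSMUSG00000050708, chr7:45457944-45459884, minus strand) encodes the light chain, which favours formation of the iron core. Its level was 533, 611, 603 and 659 FPKM in CT samples 1 to 4 and 689, 591 and 599 FPKM in cMU samples 1 to 3. The groups lay over each other, with the highest value in cMU sample 1. The log2 fold change was 0.06 (95% confidence interval -0.15 to 0.27, limma adjusted p = 0.738), and its sign turned on the deposited normalized counts (-0.02) and without cMU sample 1 (-0.01). Of all 10 genes Ftl1 had most near-identical copies, 5 other gene models with at least 95% identity over at least 200 bases, 4 of them pseudogenes. A single such copy was in the deposited table, at no more than 0.800 FPKM, so the split of reads between Ftl1 and its copies is uncertain. Fth1 had 1 such copy, a pseudogene that was not used here, and Trf overlapped a gene model on its own strand, Gm20425, at no more than 3.44 FPKM.

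The ratio of the heavy to the light chain mRNA was 3.90, 4.09, 3.51 and 3.17 in CT samples 1 to 4 and 2.56, 3.65 and 2.71 in cMU samples 1 to 3. cMU samples 1 and 3 lay below all CT samples, and cMU sample 2 lay inside the CT range. The mean ratio was 3.67 ± 0.411 (SD, n = 4) in CT and 2.97 ± 0.589 (SD, n = 3) in cMU, and the difference of the mean log2 ratios, -0.31, did not pass in an unpaired test (exact permutation test, two-sided, p = 0.143, adjusted p = 0.386 over 3 ratios). Between samples of the same number the log2 ratio was lower in cMU in 3 of 3 pairs, with differences of -0.61, -0.17 and -0.37 (mean -0.38), and 3 pairs allow no two-sided p below 0.25 in an exact paired permutation test.

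**Figure D2:**
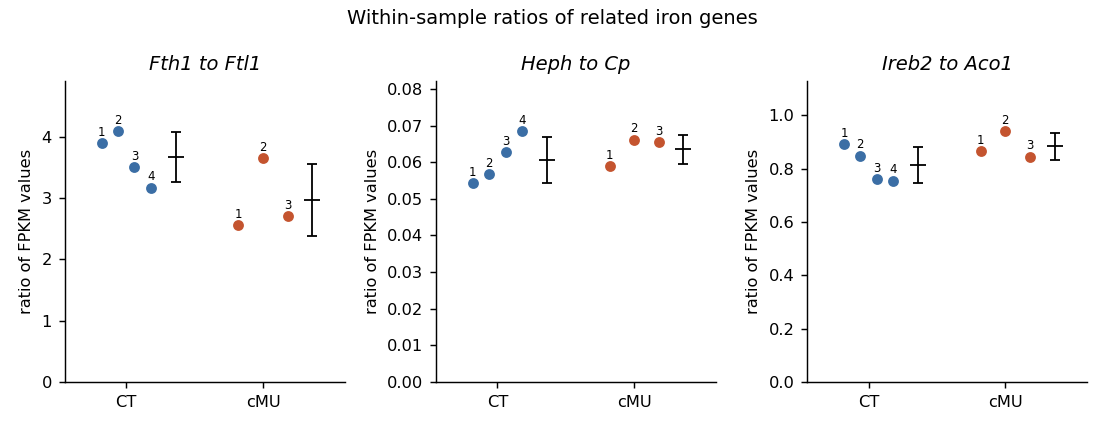
Ratio of FPKM values within each sample for Fth1 to Ftl1, Heph to Cp and Ireb2 to Aco1 on linear axes from 0, with points for samples, sample numbers above them, and black marks for the mean ± SD of 4 CT and 3 cMU samples. CT and cMU overlap in all 3 panels.

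Export is represented by Slc40a1, Heph and Cp. All 3 lay higher in every cMU sample, as did 12.9% of all genes tested. None of them passed the threshold in the limma fit with genotype alone. Slc40a1 (ENSMUSG00000025993, chr1:45908068-45926523, minus strand) encodes ferroportin, the iron exporter of vertebrate cells. Its level was 13.5, 13.6, 10.7 and 13.7 FPKM in CT samples 1 to 4 and 14.8, 17.2 and 16.8 FPKM in cMU samples 1 to 3. The cMU samples lay above every CT sample, and CT sample 3 lay far below the other CT samples. The means were 12.9 ± 1.47 FPKM (SD, n = 4) and 16.3 ± 1.27 FPKM (SD, n = 3), and the log2 fold change was 0.33 (95% confidence interval 0.10 to 0.57, limma adjusted p = 0.106). Without CT sample 3 the log2 fold change was 0.25 (adjusted p = 0.201), and it was 0.42 without CT sample 2 and cMU sample 1 together (adjusted p = 0.143). Ferroportin is abundant in macrophages and microglia, whose summed markers ran from 318 to 384 FPKM in CT and from 355 to 407 FPKM in cMU, with 9 of 9 positive, a median log2 fold change of 0.14 and none past the threshold in limma (3 at an unadjusted p under 0.05). Their part in the level of Slc40a1 was not tested.

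Heph (ENSMUSG00000031209, chrX:96455359-96574485, plus strand) encodes hephaestin, a membrane-bound copper ferroxidase used by OLs among other cells. Its level was 5.36, 3.56, 5.15 and 5.61 FPKM in CT samples 1 to 4 and 7.94, 6.92 and 7.19 FPKM in cMU samples 1 to 3. Every cMU sample lay above every CT sample, CT sample 2 was lowest and cMU sample 1 highest. The means were 4.92 ± 0.926 FPKM (SD, n = 4) and 7.35 ± 0.530 FPKM (SD, n = 3), and the log2 fold change was 0.55 (SE 0.14, limma adjusted p = 0.0756). The adjusted p passed with the replicate number as a block (limma, log2 fold change 0.61, adjusted p = 0.0309) and with DESeq2 (0.00918). It did not pass with the quasi-likelihood test of edgeR (0.0646) or when single samples were left out (limma, 0.0732 to 0.172).

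Cp (ENSMUSG00000003617, chr3:19957054-20009145, plus strand) encodes ceruloplasmin, the related ferroxidase that astrocytes carry on their surface. Its level was 98.5, 62.8, 82.2 and 81.9 FPKM in CT samples 1 to 4 and 135, 105 and 110 FPKM in cMU samples 1 to 3. The order of samples was like that of Heph at both ends, with CT sample 2 lowest and cMU sample 1 highest, and the genotypes did not overlap. The means were 81.3 ± 14.6 FPKM (SD, n = 4) and 116 ± 16.1 FPKM (SD, n = 3), and the log2 fold change was 0.52 (SE 0.15, limma adjusted p = 0.0848). As with Heph, the adjusted p passed with the block (limma, log2 fold change 0.53, adjusted p = 0.0251) and with DESeq2 (0.0141). It did not pass with the quasi-likelihood test of edgeR (0.0795) or when single samples were left out (limma, 0.0659 to 0.197). Cp overlaps Hps3 on the other strand by 108 bases, and Hps3 was at most 5.88 FPKM. The ratio of Heph to Cp was 0.0605 ± 0.00633 (SD, n = 4) in CT and 0.0636 ± 0.00397 (SD, n = 3) in cMU, and the difference of the mean log2 ratios, 0.07, did not pass in an unpaired test (exact permutation test, two-sided, p = 0.486, adjusted p = 0.486 over 3 ratios), and it was positive in 3 of 3 pairs of the same number (mean 0.13).

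The samples at the ends of the Cp and Heph ranges were the libraries that stood apart. The summed meningeal fibroblast markers were 1274, 694, 910 and 1017 FPKM in CT samples 1 to 4 and 2153, 1164 and 1196 FPKM in cMU samples 1 to 3, so that CT sample 2 was lowest and cMU sample 1 highest there too. All 6 of these markers were positive, with a median log2 fold change of 0.59, none past the threshold in limma and 3 at an unadjusted p under 0.05. The summed astrocyte markers were 2935 to 3373 FPKM in CT and 3790 to 4645 FPKM in cMU, with 8 of 8 positive, 4 past the threshold and a median log2 fold change of 0.53. The 5 choroid plexus markers summed to 16.3 to 20.6 FPKM in CT and to 60.5, 23.7 and 28.9 FPKM in cMU samples 1 to 3. The 3 of them tested were positive, with a median log2 fold change of 0.65, none past the threshold in limma and 2 at an unadjusted p under 0.05, and Kcnj13 (17.6 to 34.4 FPKM in cMU, 11.2 to 14.6 FPKM in CT) and Kl (5.291 to 9.974 and 3.312 to 4.998 FPKM) were higher in all 3 cMU samples. Clic6 (0.249 to 0.7578 FPKM in cMU, 0.1545 to 0.5694 FPKM in CT) and Folr1 (0.1156 to 1.27 and 0.03813 to 1.034 FPKM) overlapped between the genotypes. Ttr, the defining marker of that tissue, was 14.1 FPKM in cMU sample 1 and at most 0.475 FPKM in the other 6 samples. Without CT sample 2 and cMU sample 1 together, a setting chosen after the data were seen, the log2 fold change was 0.30 for Cp (limma adjusted p = 0.188) and 0.36 for Heph (adjusted p = 0.140). The part of astrocytes, meninges and choroid plexus in these levels was not tested.

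**Figure D3:**
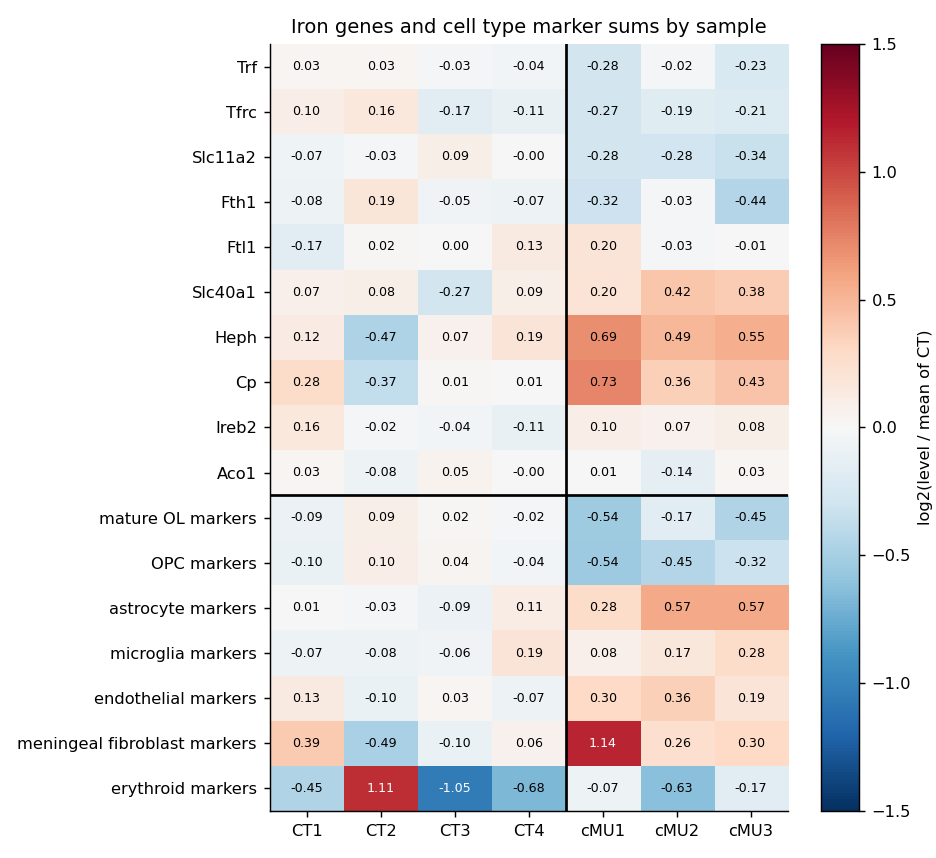
Level of each iron gene, and summed FPKM of each cell type's markers, in every sample as log2 of the level over the CT mean, with CT samples left and cMU samples right of the vertical line, red for higher and blue for lower. Cp reaches 0.73 and Heph 0.69 in cMU sample 1, where the meningeal fibroblast markers reach 1.14, and both genes and those markers are lowest in CT sample 2.

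Iron sensing is carried out by the iron regulatory proteins encoded by Ireb2 and Aco1. Ireb2 (ENSMUSG00000032293, chr9:54863755-54912534, plus strand) encodes IRP2, which is degraded when iron is plentiful. Its level was 22.4, 19.9, 19.6 and 18.6 FPKM in CT samples 1 to 4 and 21.6, 21.1 and 21.4 FPKM in cMU samples 1 to 3. The cMU samples lay within the CT range, and the log2 fold change was 0.08 (95% confidence interval -0.08 to 0.25, limma adjusted p = 0.515).

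Aco1 (ENSMUSG00000028405, chr4:40143081-40198338, plus strand) encodes IRP1, which serves as the cytosolic aconitase when it holds an iron-sulfur cluster. Its level was 25.2, 23.4, 25.7 and 24.7 FPKM in CT samples 1 to 4 and 24.9, 22.4 and 25.3 FPKM in cMU samples 1 to 3. The genotypes overlapped, and the log2 fold change was -0.03 (95% confidence interval -0.19 to 0.12, limma adjusted p = 0.801). The ratio of Ireb2 to Aco1 was 0.815 ± 0.0666 (SD, n = 4) in CT and 0.884 ± 0.0506 (SD, n = 3) in cMU, and the difference of the mean log2 ratios, 0.12, did not pass in an unpaired test (exact permutation test, two-sided, p = 0.257, adjusted p = 0.386 over 3 ratios), and it was positive in 2 of 3 pairs of the same number (mean 0.09).

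**Figure D4:**
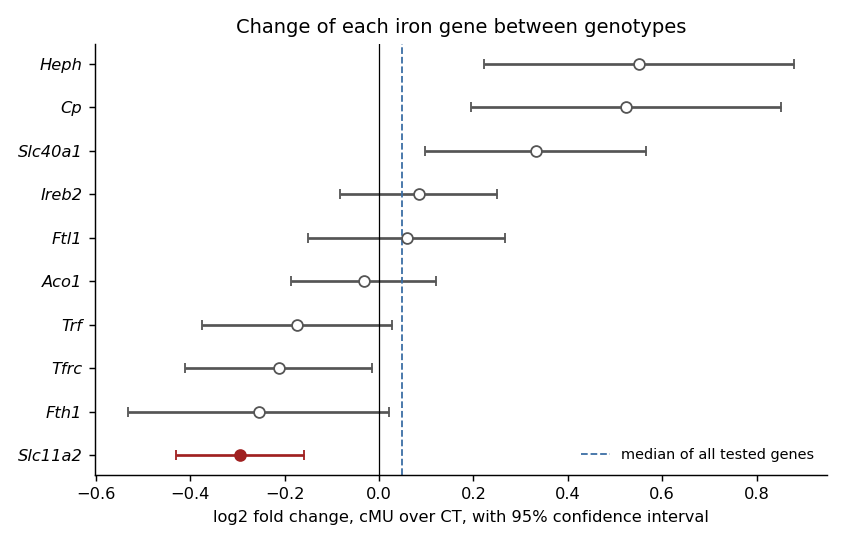
Log2 fold change of cMU over CT for each iron gene from limma-trend, with 95% confidence intervals, a filled red point where the adjusted p was under 0.05, and a dashed line at the median of all genes tested (0.05). The point is filled for Slc11a2 (-0.29), and Heph (0.55) and Cp (0.52) lie farthest to the right.

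By the place of the hairpin, Tfrc and Slc11a2 had it in the 3′ UTR, in Slc11a2 with 1 unpaired position and in 1 transcript. Both were lower in every cMU sample, as were 8.26% of all genes tested. Of these Slc11a2 passed the threshold (2.62% of all genes did), a call that was lost with the block (limma adjusted p = 0.0614). The 3 mRNAs with it in the 5′ UTR went different ways, with log2 fold changes of -0.26 for Fth1, 0.06 for Ftl1 and 0.33 for Slc40a1, none of them past the threshold in limma or with the block or DESeq2, and with Slc40a1 at an unadjusted p of 0.0109.

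The other genes of iron handling were taken from 6 lists, of which 60 genes were in the table and 51 passed the filter on low values. Of the 51, 1 rose and 2 fell past the threshold in limma, or 5.88% of them against 2.62% of all genes tested, and their median log2 fold change was -0.04 against 0.05 over all genes. Hfe, whose product regulates the hepcidin pathway and binds the transferrin receptor, rose from 19.1 ± 1.03 FPKM (SD, n = 4) in CT to 27.1 ± 3.32 FPKM (SD, n = 3) in cMU (log2 fold change 0.49, limma adjusted p = 0.0337). Cpox, an enzyme of heme synthesis, fell from 78.2 ± 7.32 FPKM to 57.4 ± 4.84 FPKM (log2 fold change -0.44, limma adjusted p = 0.0419). Slc22a17, the receptor for lipocalin-bound iron, fell from 168 ± 13.4 FPKM to 130 ± 8.23 FPKM (log2 fold change -0.37, limma adjusted p = 0.0454), a call that was lost with the block (adjusted p = 0.0504). The genotypes did not overlap in any of the 3 genes. When single samples were left out, Hfe (limma adjusted p = 0.0274) and Cpox (0.0306) passed only without cMU sample 2, and Slc22a17 (0.0480) passed only without cMU sample 1.

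Among the other uptake genes (12 tested) the median log2 fold change was 0.00, with 6 positive and 6 negative. Next to Slc22a17 stood Cybrd1, a duodenal ferric reductase, at 0.44 (limma adjusted p = 0.0657), Slc39a8, a metal transporter of the ZIP family, at 0.38 (0.0774), and Snx3, which sorts the transferrin receptor, at -0.14 (0.219). The ferritin-related genes (4 tested) gave a median of -0.11 and none past the threshold in limma (0 at an unadjusted p under 0.05), with the iron chaperone Pcbp1 at -0.16 (adjusted p = 0.233). In the hepcidin list (5 tested) the median was 0.20, and Hamp, hepcidin itself, was at or under 0.0807 FPKM in every sample. Of the 14 genes of heme synthesis and breakdown 10 were negative, with a median of -0.07. Alad, an early enzyme of heme synthesis, stood at -0.31 (limma adjusted p = 0.0799), Uros at -0.21 (0.213) and the biliverdin reductase Blvrb at 0.38 (0.123).

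In the iron-sulfur cluster and mitochondrial list (11 tested) 5 genes were positive and 6 negative with none past the threshold in limma (1 at an unadjusted p under 0.05), and the scaffold Iscu had the smallest p, at a log2 fold change of 0.27 (adjusted p = 0.110). In the list of other mRNAs with a known or proposed IRE (5 tested) the median was 0.00 and none passed in limma (2 at an unadjusted p under 0.05). Epas1, a hypoxia-inducible factor with an IRE in its 5′ UTR, was 0.32 (adjusted p = 0.0813) and Pfn2, which codes for a profilin, was -0.29 (0.101). With the block, 5 of the 51 genes passed, Hfe, Cpox, Cybrd1, Blvrb and Bmp6, or 9.80% of them against 8.36% of all genes. With DESeq2 8 of the 51 passed, or 15.7% against 12.1% of all genes, and both shares lay near those of all genes.

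**Figure D5:**
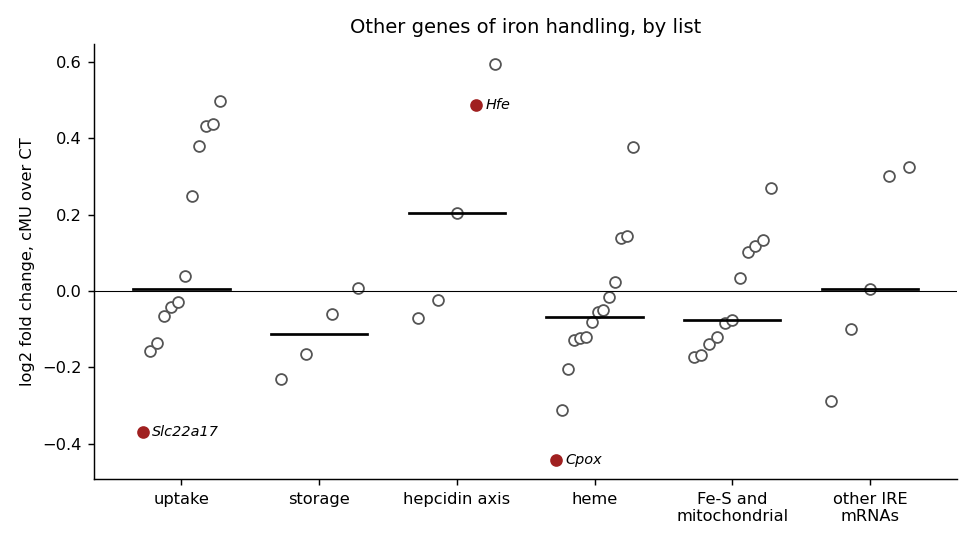
Log2 fold change of cMU over CT for the 51 other iron genes tested, by list, with filled red points for genes with a limma adjusted p under 0.05 and bars at each list's median. Hfe lies above 0 at 0.49, and Cpox and Slc22a17 lie below it at -0.44 and -0.37.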

How the data were processed

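Polyadenylated RNA of 4 CT and 3 cMU samples was sequenced with a stranded kit. The authors trimmed the reads, aligned them with STAR 2.5.1b to GRCm38 and quantified genes with RSEM 1.2.22 (per the labels and the methods). Whether counting used the strand is not given in the sources used here. They deposited FPKM values and, as a signal for each gene, a normalized count, which is the estimated count over a sample factor. The GC content of each gene was deposited as a fraction and not used. The columns of the authors' own comparison (log2 ratio, p-value, FDR) were not used.

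Genes were kept where 3 samples or more reached 0.5 FPKM, and limma-trend (limma 3.58.1) was run on log2(FPKM + 0.5), with genotype alone and a Benjamini-Hochberg threshold of 0.05. Such fold changes understate the change of low genes. Dividing the deposited normalized counts by the value of 1 read gave reads, used for depth, edgeR 4.0.16 (quasi-likelihood) and DESeq2 1.42.0. Of the values of 0.5 to 10 reads, 75.6% to 80.3% were whole within 0.05. The read step, the fits and the hairpin search were tested on simulated data. Copies were searched with blastn 2.17.0.

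The labels number the samples but do not say what the numbers stand for. The numbers were taken to pair the samples, since same-numbered samples deviated from their group means together (correlations of 0.168 to 0.409 over 3 pairs, against -0.353 to 0.205 for other numbers). This choice came from the same values, so fits with the block and counts of pairs are not independent of it. cMU sample 1 correlated less with CT sample 1 (0.168) than with CT sample 4 (0.205). In the block, CT sample 4, which has no partner, carries no weight. The iron genes, the lists and the marker lists were chosen with earlier results of these data known. Genes named are the 10 iron genes, of the other lists those past the threshold and the 5 with the smallest p in each direction beside them, the 2 closest patterns for Slc11a2, and Fasn. Bmp6, the OPC markers, Ttr, Kcnj13, Kl, Clic6, Folr1, Rpe65, Hamp and overlapping genes are named for a count or as markers, after their values were seen. Symbols of the lists without a row were not analysed here, and some results are not reported here. Alternatives were the pseudocount, the filter, the scaling, the unit, the tool, the block and leaving out samples.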

Additional observations from a re-analysis of the deposited data

Results flagged for a closer look

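In 26 control groups of 4 samples examined (the iron genes, the other named iron genes and the 3 ratios), 3 held a sample far from the other 3, where chance alone flags about 1 group in 20. Fth1 was 2502 FPKM in CT sample 2 and 2080 to 2116 FPKM in the other CT samples. Slc40a1 was 10.65 FPKM in CT sample 3 and 13.5 to 13.7 FPKM in the others. Snx3 was 118.4 FPKM in CT sample 2 and 104.7 to 105.8 FPKM in the others. The groups of 3 cMU samples were not examined in this way.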

How the results depend on the processing

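Over 19 alternatives for each of the 10 iron genes, 172 of 190 fold changes kept their direction and their side of the threshold, 10 lost the call of Slc11a2, 4 gained a call (Heph and Cp, with DESeq2 and with the replicate block) and 4 changed sign. Those 4 were Ftl1 on normalized counts (-0.0197), without cMU sample 1 (-0.0124) and without CT sample 2 and cMU sample 1 together (-0.0037), and Aco1 without cMU sample 2 (0.0205). Without single samples Ftl1 ran from -0.0124 to 0.103 and Aco1 from -0.0644 to 0.0205.

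Past the threshold were 363 genes, 1 iron gene and 3 of the other iron genes with limma. Without a filter on low values these counts were 95, 0 and 0 (5 iron genes and 14 others at an unadjusted p under 0.05), and with TPM scaling 241 genes and 0 iron genes (6 at an unadjusted p under 0.05). DESeq2 on reads called 1684, 3 and 8, and the quasi-likelihood test of edgeR 400, 1 and 3. With the replicate number as a block the counts were 1159, 2 and 5. Leaving out 1 sample at a time gave 6 to 909 genes (15 without CT sample 2, 6 without CT sample 3 or cMU sample 3, 909 without cMU sample 2), 0 to 1 iron genes and 0 to 2 others. Without CT sample 2 and cMU sample 1 together, chosen after the data were seen, they were 51, 0 and 0 (4 iron genes and 11 others at an unadjusted p under 0.05). Fits with fewer samples have fewer degrees of freedom, and the other causes were not tested. Higher genes made up 48.2% of all calls in limma on FPKM, 38.1% with TMM scaling, 37.9% with median-of-ratios scaling, 39.0% with TPM scaling, 27.8% on normalized counts and 76.8% with the block. The differences in the 3 log2 ratios moved by less than the larger SD between samples of a group in every alternative, which is a wide allowance. For Fth1 to Ftl1 the difference ran from -0.47 without cMU sample 2 to -0.16 without CT sample 2 and cMU sample 1 together. It ran from 0.02 to 0.13 for Heph to Cp and from 0.07 to 0.16 for Ireb2 to Aco1.

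With 3 cMU samples the intervals of Ireb2, Aco1 and Ftl1 still allow changes of up to 0.27 on the log2 scale. At least 517 reads per library lay behind each of the 10 genes.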
